A study of Mus musculus with 8 samples.

Results

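The insulin-like growth factor (IGF) ligands, their binding proteins (IGFBPs) and the clearance receptor Igf2r were examined in RNA sequencing libraries from endothelial cells (ECs) of mice with and without endothelial LRP1. The members were taken by gene symbol, from a list chosen with earlier results of these data known. They were Igf1, Igf2, Igf2r and Igfbp2 to Igfbp7, 9 of the 22520 genes in the deposited table. All 9 were present and tested. The study isolated microvascular ECs from lung, heart and liver of C57BL/6 mice at postnatal day 14, and the labels give each library as a mixture of the 3 organs. There were 4 wild-type (WT) and 4 LRP1 KO libraries. The study itself describes liver ECs and heart and lung ECs as separate preparations, which differs from these labels, so the genotypes and isolation given next hold for these libraries only as far as the same mice and cells were used. According to the study's methods, the WT littermates were LRP1 f/f; Cdh5-CreER-/- and the knockouts LRP1 f/f; Cdh5-CreER+/-, so both groups carried the floxed Lrp1 alleles and the tamoxifen-inducible Cre recombinase, driven by the promoter of the endothelial gene Cdh5, was present in the knockouts alone. Cells of this kind were selected with beads against the endothelial surface protein PECAM-1. Neither the tamoxifen schedule nor the number of animals behind each of these libraries is given in the sources used here. Values were taken to be FPKM, fragment counts divided by transcript length and by the fragments mapped in the library, which were then quantile normalized. The table does not name the unit. On this scale levels can be compared between genes per unit of length.

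Igf1 and Igf2 are small secreted hormones that activate the receptor tyrosine kinase Igf1r, through which they promote growth and survival and act on metabolism. Most IGF outside cells is held by the IGFBPs, which lengthen its life in blood and tissue fluid and can block or release it near its receptor. Igf2r, also known as the cation-independent mannose 6-phosphate receptor, takes up Igf2 for degradation in lysosomes and sorts newly made lysosomal enzymes. LRP1 is a large endocytic receptor related to the low-density lipoprotein receptor.

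Lrp1 itself was at a mean of 120.1 FPKM in WT, from 103 to 140.4 FPKM, and at 4.79 ± 2.20 FPKM (SD, n = 4) in LRP1 KO, 3.99% of the WT level. Its highest LRP1 KO value was 7.72 FPKM, in LRP1 KO 4. The values had been quantile normalized, so library depth is unknown and the precision of each value was judged from the spread between libraries. LRP1 KO 4 stood apart from its group: on the first principal component of all tested genes, which held 60.8% of the variance, it lay at 0.102, the other LRP1 KO libraries at 17.2 to 27.3 and the WT libraries at -24.1 to -12.9. WT 4 and LRP1 KO 2, 1 library in each group, had almost no transcripts of Y-linked genes. Endothelial markers were low for selected ECs: 17 of 20 reached a mean of 1 FPKM, but the WT mean was 7.89 FPKM for Pecam1 and 9.59 FPKM for Cdh5. Mesothelial markers, of the cells that line organ surfaces, were much higher, with Msln at 1094 to 1272 FPKM in WT, as were fibroblast markers, with Col1a2 at a WT mean of 882 FPKM. Transcripts known from other cell types thus exceeded those of the labelled type. Which cells carried the fall of Lrp1 to 3.99% was not tested. In such bulk samples fewer cells of a type and less RNA per cell cannot be told apart.

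**Figure D1:**
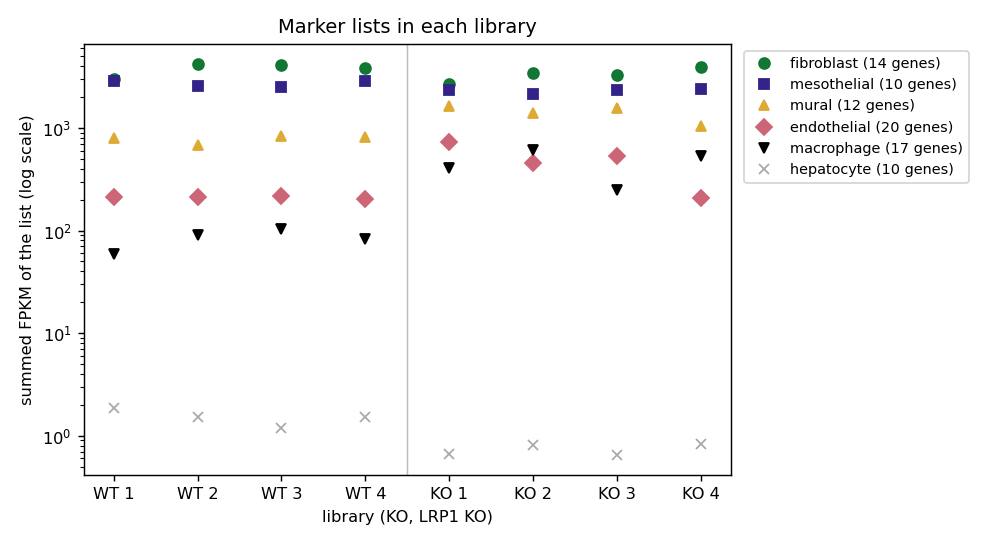
Summed FPKM of 6 marker lists in each library, on a log scale. The mesothelial sum was 2482 to 2867 in WT and 2127 to 2414 in LRP1 KO, the macrophage sum 59.6 to 103 against 248 to 603, and the endothelial sum 203 to 219 against 209 to 737, lowest in LRP1 KO 4.

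In WT, the transcripts of the IGF system were mostly those of binding proteins. Igfbp7, which binds IGFs weakly and is also known from vessel walls, and Igfbp6, which prefers Igf2, had means of 667.6 and 515.9 FPKM and ranked 116 and 162 among the 22520 genes. Their ranges over the 4 WT libraries overlapped. Igfbp4 followed at 121.4 FPKM, then Igfbp3 at 62.3 and Igfbp2 at 45.3 FPKM, with overlapping ranges for the latter pair. Igf2 was at 25.5, Igf2r at 10.6, Igfbp5 at 3.59 and Igf1 at 2.38 FPKM, and each of these ranges lay apart from its neighbours. In LRP1 KO the order changed at 2 places, and Igfbp7 now lay apart from Igfbp6, at 2.10 times its mean. Igfbp3 came before Igfbp4, with overlapping ranges, and Igf1 came before Igfbp5, with ranges apart.

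Of the 9 members, 5 differed between the groups at an adjusted p under 0.05 (limma on log2(FPKM + 1), Benjamini-Hochberg over 11389 tested genes). Among all tested genes the same was true of 13.6%. These shares are set side by side without a test, since the members were chosen with earlier results known. Igf1 and Igf2r were higher in LRP1 KO, 2 members against 6.27% of all tested genes, and Igfbp4, Igfbp5 and Igfbp6 were lower, 3 members against 7.31%. The same 5 members had no overlap between the values of the groups, as had 19.6% of tested genes. The members' median log2 fold change was 0.10 and that of all tested genes -0.01. By limma, 7 members had an unadjusted p under 0.05, as had 3838 of all 11389 tested genes. With a fitted change of at least 2-fold as a second condition beside the adjusted p, 0 members were called, against 1.62% of all tested genes. This count was 3 when 0.1 was added in place of 1: the changes of Igf1 and Igfbp5, low genes whose change the log2(FPKM + 1) scale understates, became 1.184 and -1.07, and that of Igfbp4, already near 2-fold, became -1.002. It was 2 with library quality weights, without WT 3 or without LRP1 KO 4, and 1 without WT 1 or without LRP1 KO 2.

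**Figure D2:**
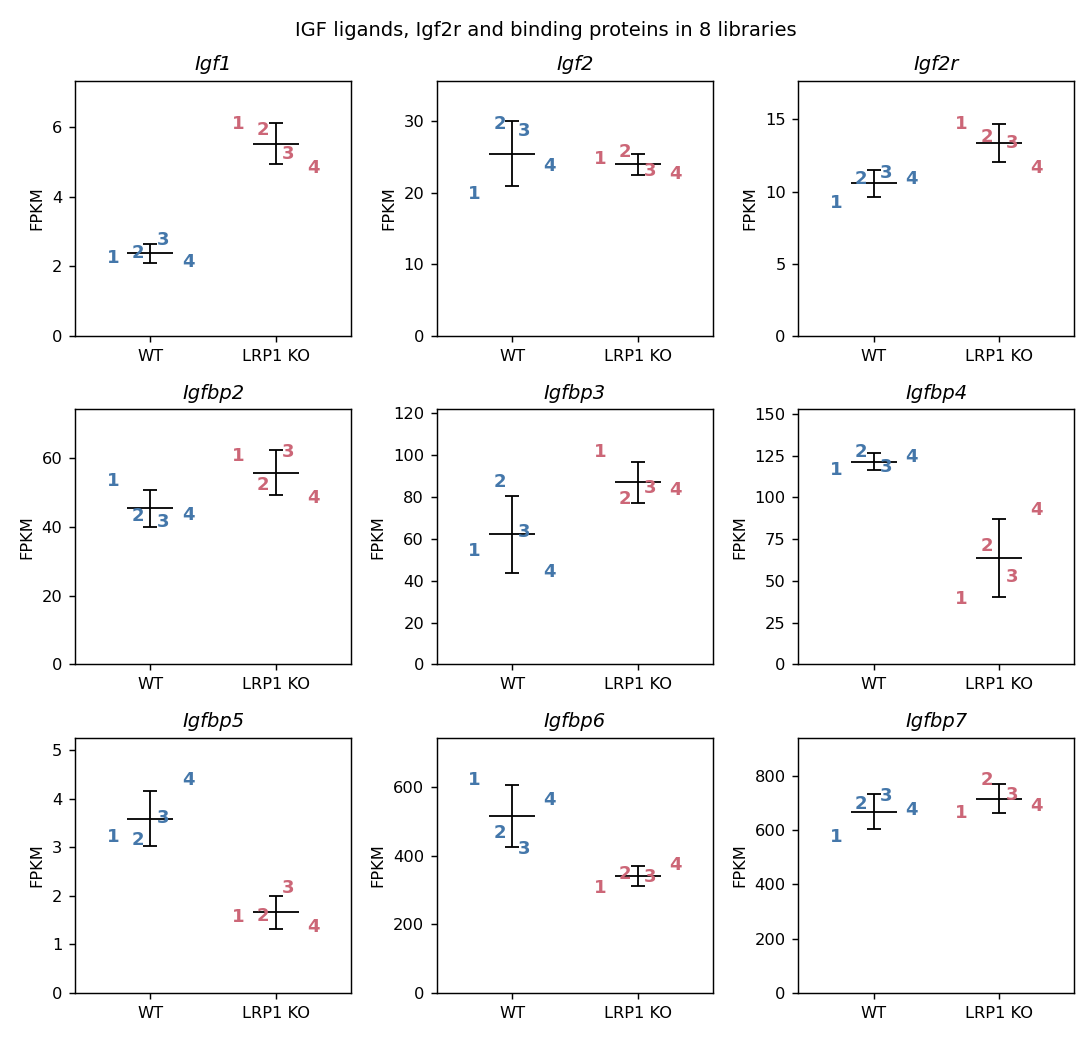
FPKM of each member in the 4 WT (blue) and 4 LRP1 KO (red) libraries, with digits giving the replicate number, horizontal lines the group mean and bars 1 SD; every axis starts at 0 and has its own scale. Igf1 and Igf2r were higher and Igfbp4, Igfbp5 and Igfbp6 lower in all 4 LRP1 KO libraries than in any WT library, and LRP1 KO 4 was the LRP1 KO library nearest to the WT mean in 4 of these 5 genes.

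Between the ligands, the change was on the side of Igf1. Igf1, which is induced by growth hormone in liver and also made locally in many tissues, was at 2.24, 2.38, 2.75 and 2.13 FPKM in the libraries WT 1 to 4, and its level in LRP1 KO 1 to 4 was 6.10, 5.92, 5.24 and 4.84 FPKM. All LRP1 KO values were above all WT values, the lowest by a factor of 1.76 over the highest WT value. The mean rose from 2.38 ± 0.271 to 5.53 ± 0.590 FPKM (SD, n = 4 each), a ratio of 2.33. On the log2(FPKM + 1) scale the change was 0.95 (SE 0.09, limma adjusted p = 0.000645), and an exact two-sided permutation test over the 70 ways to choose 4 of 8 libraries gave 0.0286, the smallest p it can give. The call held in all 8 fits that left out 1 library, with changes of 0.91 to 1.002. Macrophage markers moved the same way: 9 of the 11 tested were higher, none lower, and the WT and LRP1 KO ranges of their summed FPKM were apart, at 59.6 to 103 and 248 to 603 FPKM, with Csf1r, Cd68, Mrc1 and C1qb higher in every LRP1 KO library than in any WT library. Clec4f, a marker of Kupffer cells, and Cx3cr1, a marker of some macrophages, were near 0 in both groups, and Adgre1 was not analysed here. Within LRP1 KO 1 to 4 the macrophage sums were 404, 603, 248 and 538 FPKM, while Igf1 was lowest in LRP1 KO 4. With the mean macrophage level as a covariate the Igf1 change was 0.84 (SE 0.25, limma adjusted p = 0.127). The call was kept with the endothelial (0.81, limma adjusted p = 0.0116), fibroblast (0.89, limma adjusted p = 0.00468) and mesothelial mean (0.78, limma adjusted p = 0.0341). The part of macrophages in the Igf1 change was not tested.

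Igf2, the imprinted ligand best known as a growth factor of the fetus, was at 19.8, 29.7, 28.7 and 23.7 FPKM across the WT libraries and at 24.7, 25.7, 23.0 and 22.6 FPKM in LRP1 KO. The groups overlapped, with the lowest and the highest of the 8 values both in WT. The mean was 25.5 ± 4.58 FPKM in WT libraries against 23.99 ± 1.48 FPKM in LRP1 KO, a log2 change of -0.07 with a 95% interval of -0.33 to 0.20 (limma adjusted p = 0.719, exact permutation p = 0.629). The sign depended on WT 2, without which the change was 0.01. It was -0.46 with the macrophage and -0.40 with the mesothelial mean as a covariate (limma adjusted p = 0.380 and 0.117). Of the exonic bases of Igf2, 62.8% are shared with the annotated gene Gm49394 on the same strand, which is no row of the table, so reads of the 2 genes may have been counted together. Igf2 remained the more abundant ligand in every library, but by less: the ratio of Igf2 to Igf1 FPKM was 8.84, 12.4, 10.4 and 11.1 in WT and 4.05, 4.35, 4.39 and 4.66 in LRP1 KO. Igf1 thus made up 8.65 ± 1.15% of ligand transcripts in WT and 18.7 ± 0.883% in LRP1 KO, while the summed ligand FPKM of 27.8 ± 4.76 and 29.5 ± 2.03 overlapped.

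Igf2r was at 9.21, 10.9, 11.3 and 10.8 FPKM across the WT libraries and at 14.7, 13.8, 13.4 and 11.6 FPKM in LRP1 KO. The groups were apart by little, since LRP1 KO 4 was only 1.03 times the highest WT value. The mean rose from 10.6 ± 0.920 to 13.4 ± 1.29 FPKM, a ratio of 1.27 and a log2 change of 0.31 (SE 0.09, limma adjusted p = 0.0443, exact permutation p = 0.0286). This was the least stable call among the members. It was lost when any 1 of the other 7 libraries was left out, with changes of 0.25 to 0.34, and kept only without LRP1 KO 4, when the change was 0.37 (limma adjusted p = 0.0115). It was also lost with no filter on low values (0.31, limma adjusted p = 0.0689), with a term for Y-linked transcripts (0.31, limma adjusted p = 0.0661) and with a replicate block (0.31, limma adjusted p = 0.0856). Every marker covariate ended it too: the endothelial (0.17, limma adjusted p = 0.644), mesothelial (0.18, limma adjusted p = 0.411), macrophage (0.29, limma adjusted p = 0.504) and fibroblast mean (0.25, limma adjusted p = 0.271). The mouse gene lies on chromosome 17 (12682406 to 12769664, minus strand, GRCm38) and overlaps the antisense RNA gene Airn, with no exonic base in common. In the same libraries Igf1r was at 11.6 ± 1.02 and 12.6 ± 1.58 FPKM, a log2 change of 0.10 (SE 0.10, limma adjusted p = 0.468), and the ratio of Igf2r to Igf1r, 0.908 ± 0.0619 in WT and 1.06 ± 0.0911 in LRP1 KO, overlapped between the groups.

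Igfbp4, an inhibitor of IGF action that is cleaved by the protease Pappa, was at 116, 127, 118 and 124 FPKM across the WT libraries and at 39.0, 71.1, 52.4 and 92.2 FPKM in LRP1 KO. WT values were close together, with a coefficient of variation of 4.15%, whereas those of LRP1 KO were spread, at 36.3%, from LRP1 KO 1 at the bottom to LRP1 KO 4 at the top. The mean fell from 121.4 ± 5.04 to 63.7 ± 23.1 FPKM, 52.5% of the WT level, a log2 change of -0.99 (SE 0.22, limma adjusted p = 0.0219, exact permutation p = 0.0286). The call was lost without WT 2 (-0.97) and without LRP1 KO 3 (-0.92), and without LRP1 KO 4 the change was -1.19 (limma adjusted p = 0.00176). With no filter on low values the call was lost as well (-0.99, limma adjusted p = 0.0507). Fibroblast markers moved in part with it: 3 of the 13 tested fell (Pdgfra, Dpt and Thy1), all of which had their lowest value in LRP1 KO 1 and their highest LRP1 KO value in LRP1 KO 4, while Postn rose. The summed fibroblast list was 2989 to 4236 FPKM in WT libraries against 2690 to 3937 FPKM in LRP1 KO, and with the fibroblast mean as a covariate the change in Igfbp4 was -0.54 (limma adjusted p = 0.0430). Endothelial markers, whose sum was nearest to WT in LRP1 KO 4, had a higher estimate in LRP1 KO for 17 of 17 tested (median 0.90 on the log2 scale), of which 12 had an unadjusted p under 0.05 and 2 passed the threshold of limma. With their mean as a covariate the change of Igfbp4 was -0.37 (limma adjusted p = 0.200). With the macrophage mean it was -1.94 (limma adjusted p = 0.115) and with the mesothelial mean -1.09 (limma adjusted p = 0.145).

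Igfbp5, which binds to extracellular matrix, was at 3.21, 3.15, 3.61 and 4.38 FPKM across the WT libraries and at 1.56, 1.59, 2.15 and 1.37 FPKM in LRP1 KO. Every WT value exceeded every LRP1 KO value, the nearest pair by a factor of 1.47, and LRP1 KO 4 was here the farthest from WT. The mean fell from 3.59 ± 0.564 to 1.66 ± 0.339 FPKM, 46.4% of the WT level, a log2 change of -0.78 (SE 0.12, limma adjusted p = 0.00520, exact permutation p = 0.0286). It was called in all 8 fits without 1 library, at -0.87 to -0.71. With the macrophage mean as a covariate the change was -0.38 (SE 0.28, limma adjusted p = 0.463) and with the mesothelial mean -0.68 (limma adjusted p = 0.119). The call was kept with the endothelial (-0.87, limma adjusted p = 0.0436) and fibroblast mean (-0.83, limma adjusted p = 0.0245). Igfbp5 and Igfbp2 are neighbours on chromosome 1, on opposite strands, at 72857932 to 72874884 and 72824503 to 72852474 (GRCm38), and their estimates had opposite signs.

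Igfbp6 was at 619, 465, 419 and 561 FPKM across the WT libraries and at 305, 346, 339 and 373 FPKM in LRP1 KO. The lowest WT value was 1.12 times the highest LRP1 KO value. The mean fell from 515.9 ± 90.6 to 340.7 ± 27.9 FPKM, 66.0% of the WT level, a log2 change of -0.58 (SE 0.12, limma adjusted p = 0.0182, exact permutation p = 0.0286). The call was lost without LRP1 KO 1 (-0.53), LRP1 KO 2 (-0.59) or LRP1 KO 3 (-0.58), and kept without LRP1 KO 4 (-0.63, limma adjusted p = 0.00914). Mesothelial markers moved the same way, with 3 of 10 lower (Msln, Upk3b and Bnc1) and none higher. Msln fell from 1177 ± 85.6 to 985 ± 59.6 FPKM, and with the mesothelial mean as a covariate, an alternative added after the values were seen, the change in Igfbp6 was -0.29 (limma adjusted p = 0.248). The call was lost as well with the endothelial (-0.44, limma adjusted p = 0.335), fibroblast (-0.57, limma adjusted p = 0.107) and macrophage mean (-0.42, limma adjusted p = 0.471).

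The other 3 binding proteins did not pass the threshold. Igfbp3, the main carrier of IGFs in blood, was at 54.2, 87.2, 63.5 and 44.3 FPKM across the WT libraries and at 101.6, 79.3, 84.4 and 83.3 FPKM in LRP1 KO. WT 2 lay within the LRP1 KO range and the other WT values lay below it. The means of 62.3 ± 18.3 and 87.2 ± 9.86 FPKM gave a log2 difference of 0.52 with a 95% interval of 0.11 to 0.92 before adjustment (limma adjusted p = 0.0817, exact permutation p = 0.114). Without WT 2 it was 0.69 and past the threshold (limma adjusted p = 0.0291), and with the mesothelial mean as a covariate 0.20 (limma adjusted p = 0.653). Igfbp2, abundant in fetal tissues, was at 53.1, 43.1, 41.3 and 43.4 FPKM across the WT libraries and at 60.6, 52.2, 61.6 and 48.3 FPKM in LRP1 KO, with overlap through WT 1. The means were 45.3 ± 5.34 and 55.7 ± 6.48 FPKM. Its log2 difference was 0.29, with an interval of 0.06 to 0.52 (limma adjusted p = 0.0814, exact permutation p = 0.0857). It passed the threshold without WT 1 (0.37) and without LRP1 KO 4 (0.36). With a covariate it ranged widely, at 0.87 with the macrophage and 0.10 with the endothelial mean (limma adjusted p = 0.109 and 0.819). Igfbp7 was at 576, 695, 726 and 673 FPKM across the WT libraries and at 664, 782, 729 and 688 FPKM in LRP1 KO. The groups overlapped, at means of 667.6 ± 65.1 and 715.9 ± 51.8 FPKM, with a log2 difference of 0.10 and an interval of -0.09 to 0.29 (limma adjusted p = 0.416, exact permutation p = 0.371). The sign for Igfbp7 reversed with the macrophage (-0.12) and mesothelial mean (-0.0777) as a covariate, and stayed with the endothelial (0.12) and fibroblast mean (0.19). Of its exonic bases, 7.03% are shared with Polr2b on the opposite strand, and it is not stated whether the counting used strand.

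**Figure D3:**
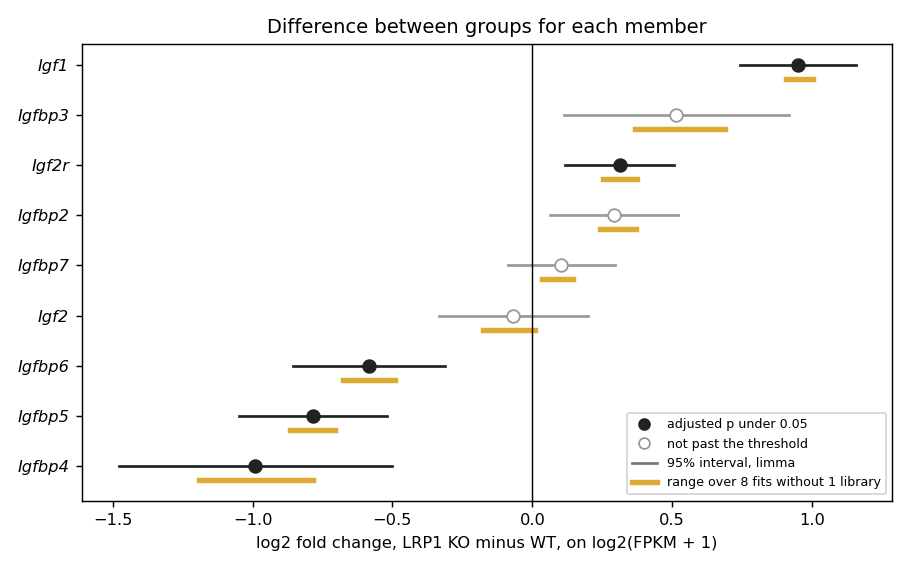
Log2 fold change of each member (LRP1 KO minus WT, on log2(FPKM + 1)), with its 95% limma interval before adjustment and, as a yellow bar, the range of the estimates over the 8 fits that left out 1 library each; filled points passed an adjusted p of 0.05. Of the members, only Igf2 changed sign when 1 library was left out.

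Promoter sequences were read from RefSeq (GRCm38.p6) for all 9 members, which have 13 annotated starts among 32851 promoters. The 250 bases before the start are shown for the called members whose RefSeq start lies within 50 bases of the GENCODE gene start, namely Igf2r among those that rose and Igfbp4 and Igfbp5 among those that fell. Searched on both strands were a forkhead motif (TGTTTAC), a STAT motif (TTCNNNGAA), a TATA box (TATAAA), an E-box (CACGTG) and a GC box (GGGCGG). Capitals mark the matches, none of which overlapped another in the windows shown.
Igf2r, chr17:12769707-12769956, minus strand: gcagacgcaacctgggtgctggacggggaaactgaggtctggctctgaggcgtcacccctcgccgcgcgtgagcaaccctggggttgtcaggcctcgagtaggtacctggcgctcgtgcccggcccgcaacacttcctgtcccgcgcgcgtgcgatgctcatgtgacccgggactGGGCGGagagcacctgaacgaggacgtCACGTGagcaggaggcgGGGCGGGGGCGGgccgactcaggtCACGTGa
Igfbp4, chr11:99040994-99041243, plus strand: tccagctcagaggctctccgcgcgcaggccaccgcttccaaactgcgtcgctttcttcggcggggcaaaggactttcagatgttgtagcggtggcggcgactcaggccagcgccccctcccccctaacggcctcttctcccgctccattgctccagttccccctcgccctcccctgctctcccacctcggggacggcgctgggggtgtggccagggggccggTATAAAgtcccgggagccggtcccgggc
Igfbp5, chr1:72874866-72875115, minus strand: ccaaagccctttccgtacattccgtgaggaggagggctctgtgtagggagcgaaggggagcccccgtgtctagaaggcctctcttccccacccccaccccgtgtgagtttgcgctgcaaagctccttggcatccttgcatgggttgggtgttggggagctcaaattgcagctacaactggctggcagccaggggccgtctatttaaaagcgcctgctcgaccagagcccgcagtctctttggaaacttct
The Igf2r window held 2 E-boxes, beginning 48 and 7 bases before the start, and 3 GC boxes. An E-box was present in 6.02% and a GC box in 32.7% of all promoters. Igfbp4 had a TATA box beginning 28 bases before its start, as 12.4% of promoters had at any place in the window, and the Igfbp5 window held none of the 5 motifs. GC content was 69.2% in Igf2r and Igfbp4 and 58.8% in Igfbp5, against a median of 52.4% over all promoters. The forkhead motif (3.17% of promoters) and the STAT motif (7.02%) were in none of the 13 windows of the members. A match or its absence concerns these letters in this window alone.

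The makeup of the binding protein transcripts differed accordingly. Summed over Igfbp2 to Igfbp7, FPKM was 1416 ± 32.4 in WT, from 1372 to 1450, and 1265 ± 67.6 in LRP1 KO, from 1172 to 1333. Igfbp7 took 40.5, 48.9, 52.9 and 46.4% of this sum in WT and 56.7, 58.7, 57.5 and 53.5% in LRP1 KO. All LRP1 KO shares were above all WT shares, although the FPKM of Igfbp7 itself overlapped. The share of Igfbp6 was 36.4 ± 5.89% in WT and 26.9 ± 1.42% in LRP1 KO, and that of Igfbp4 8.58 ± 0.317% and 4.99 ± 1.67%, both with no overlap. Igfbp2 made up 3.20 ± 0.363% and 4.42 ± 0.695%, barely apart, at 3.74% for the highest WT and 3.75% for the lowest LRP1 KO share. Igfbp3 made up 4.41 ± 1.32% and 6.94 ± 1.19%, with overlap. The pair Igfbp4 and Igfbp3 changed places: their ratio was 2.14, 1.46, 1.86 and 2.80 in WT and 0.384, 0.897, 0.621 and 1.11 in LRP1 KO. LRP1 KO 4 was the only LRP1 KO library in which Igfbp4 still exceeded Igfbp3. Binding protein FPKM per ligand FPKM was 52.1 ± 10.004 in WT and 43.0 ± 3.86 in LRP1 KO, with overlap. These shares and ratios are descriptions without a test.

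**Figure D4:**
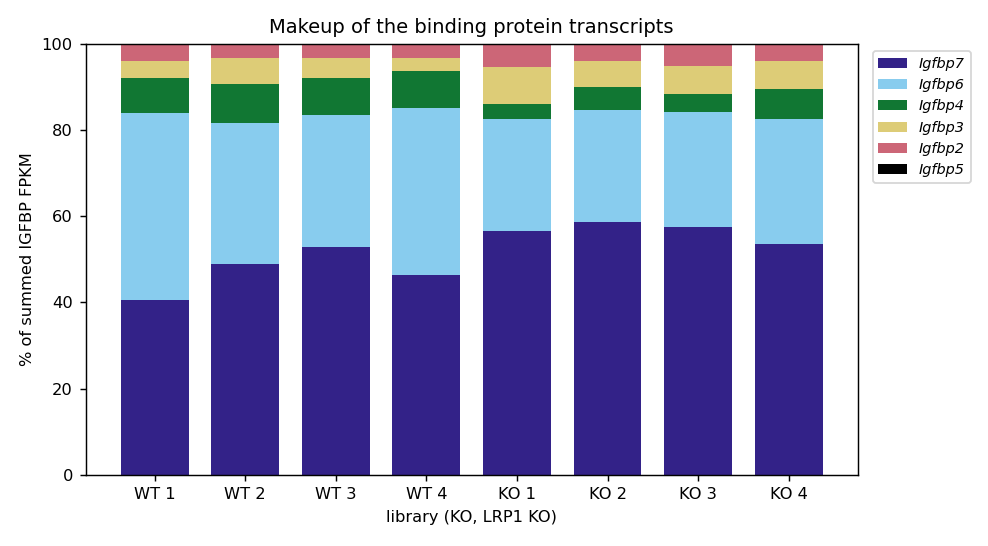
Share of each binding protein in the summed FPKM of Igfbp2 to Igfbp7, in percent, for each library. Igfbp7 and Igfbp6 filled most of each bar, the Igfbp6 and Igfbp4 parts were smaller in the 4 LRP1 KO bars, and Igfbp5, at 0.253% in WT and 0.132% in LRP1 KO, is too small to be seen.

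Genes around the members were followed in lists by role, and their counts of calls are set against the 13.6% of all tested genes that were called. Of the 12 called genes of these lists, only Gga2 and Plagl1 kept their call in all 8 fits without 1 library, as Igf1 and Igfbp5 did among the members. With no filter on low values 9 of the 12 lost their call, Gga2, Ap1m1 and Plagl1 being the exceptions, at limma adjusted p up to 0.0860, and with a term for Y-linked transcripts Shc1, Crim1, Ghr and Gnptg lost theirs. With the macrophage, endothelial or mesothelial mean as a covariate none of the 12 passed the threshold, and with the fibroblast mean Htra3 alone did (limma adjusted p = 0.0406). With the macrophage mean, with which no member passed either, all 12 changes were larger in size and had larger errors, and with the endothelial mean 11 of 12 were smaller. Of the receptors and proximal adaptors of IGF signaling, 9 of 12 were tested, 0 rose and 1 fell, a share near that of all genes, with a median log2 fold change of -0.11. The adaptor Shc1 fell from 113 ± 7.48 to 88.8 ± 11.4 FPKM (log2 change -0.34, limma adjusted p = 0.0363), although the group values overlapped. The call was kept in 1 of the 8 fits without 1 library, that without LRP1 KO 4, and the limma adjusted p reached 0.107 in the others. Grb10, an imprinted inhibitor of the IGF and insulin receptors, was at 95.9 ± 11.002 and 94.8 ± 4.71 FPKM. The insulin receptor gene Insr was at 7.23 ± 0.918 and 5.68 ± 0.674 FPKM (limma adjusted p = 0.0762).

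Among carriers, IGFBP-cleaving proteases and their inhibitors, 7 of 13 were tested, 0 rose and 2 fell, with a median of -0.26. Stc1, an inhibitor of Pappa, fell from 5.03 ± 1.25 to 2.54 ± 0.710 FPKM (log2 change -0.77, limma adjusted p = 0.0249). Htra3, a serine protease that can cleave IGFBPs, fell from 10.02 ± 2.62 to 4.05 ± 1.76 FPKM (log2 change -1.17, limma adjusted p = 0.0284). Each call was kept in 3 of 8 fits, without WT 1, WT 3 or LRP1 KO 4 for Stc1 and without WT 1, LRP1 KO 1 or LRP1 KO 4 for Htra3. Pappa, which releases IGF from Igfbp4, was at 2.45 ± 0.845 FPKM in WT libraries against 3.16 ± 0.468 FPKM in LRP1 KO (limma adjusted p = 0.258). The most abundant of the list were the lysosomal protease Ctsd, at 981 ± 94.8 and 1127 ± 37.6 FPKM, and Prss23, at 321 ± 29.0 and 373 ± 39.8 FPKM, neither past the threshold. Igfals, the partner of Igfbp3 in blood, stayed under 0.05 FPKM in every library, and Plg and Klk1 were listed at 0.

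IGFBP-related proteins, which carry an IGFBP-like domain but are not known for strong binding of IGFs, had 7 of 10 genes tested, of which 4 rose and 0 fell, with a median of 0.50. The connective tissue growth factor gene Ctgf rose from 298 ± 57.9 to 448 ± 65.9 FPKM (log2 change 0.59, limma adjusted p = 0.0335) and Cyr61 of the same family from 144 ± 10.8 to 207 ± 33.4 FPKM (0.50, limma adjusted p = 0.0245). Wisp1 rose from 17.5 ± 3.28 to 25.6 ± 2.66 FPKM (0.54, limma adjusted p = 0.0279) and Crim1 from 20.6 ± 3.06 to 33.0 ± 8.30 FPKM (0.63, limma adjusted p = 0.0420). Of these, Cyr61 and Wisp1 had no overlap between groups. All 4 calls were kept without LRP1 KO 4. That was the only such fit for Crim1, while Cyr61 was also called without WT 3, and Ctgf and Wisp1 without WT 3 and without WT 4, so that each was lost in at least 5 of 8 fits. Mural cell markers were also higher, 5 of 9 tested and none lower, with a summed level of 675 to 841 FPKM in WT libraries against 1047 to 1646 FPKM in LRP1 KO, and their part in these changes was not tested.

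In the growth hormone axis, 9 of 10 genes were tested, 1 rose and 0 fell, again near the share of all genes, with a median of -0.05. The growth hormone receptor gene Ghr rose from 52.4 ± 10.8 to 90.9 ± 23.5 FPKM (log2 change 0.77, limma adjusted p = 0.0440), but LRP1 KO 4, at 57.9 FPKM, lay within the WT range, and the call was kept only without that library among the 8 fits. It was also lost with no variance trend (limma adjusted p = 0.0501), with no filter (0.0860), with the Y-linked term (0.0606) and with each of the 4 marker covariates (0.207 to 0.682). Ptpn11, a phosphatase of growth factor signaling, was at 35.8 ± 2.98 and 43.5 ± 4.75 FPKM (limma adjusted p = 0.0712). Of the 12 partners of Igf2r in mannose 6-phosphate sorting, all tested, 0 rose and 3 fell, with a median of 0.03. Gga2, an adaptor that loads the receptor into vesicles at the Golgi, fell from 36.7 ± 2.34 to 28.6 ± 1.18 FPKM (log2 change -0.35, limma adjusted p = 0.00954). Ap1m1, a subunit of the clathrin adaptor AP-1, fell from 43.5 ± 0.665 to 37.1 ± 1.44 FPKM (-0.23, limma adjusted p = 0.0199), and Gnptg, a subunit of the enzyme that makes the mannose 6-phosphate tag, from 24.8 ± 1.66 to 20.8 ± 1.41 FPKM (-0.25, limma adjusted p = 0.0468). The call for Gga2 was kept in all 8 fits without 1 library, that for Ap1m1 in 4 (without WT 1, WT 3, WT 4 or LRP1 KO 4) and that for Gnptg in 2 (without WT 4 or LRP1 KO 4). Gnptg was also lost on rescaling (limma adjusted p = 0.0557) and with no variance trend (0.0554). These 3 genes were lower in every LRP1 KO library than in any WT library, whereas Igf2r was higher. The most abundant of the list, Vps29, a subunit of the retromer that returns receptors to the Golgi, was at 93.8 ± 6.65 and 103 ± 7.66 FPKM, and the AP-1 subunit gene Ap1s1 was at 85.2 ± 8.27 and 96.5 ± 11.5 FPKM, neither past the threshold. The small mannose 6-phosphate receptor M6pr was at 56.5 ± 2.73 and 57.1 ± 1.23 FPKM.

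**Figure D5:**
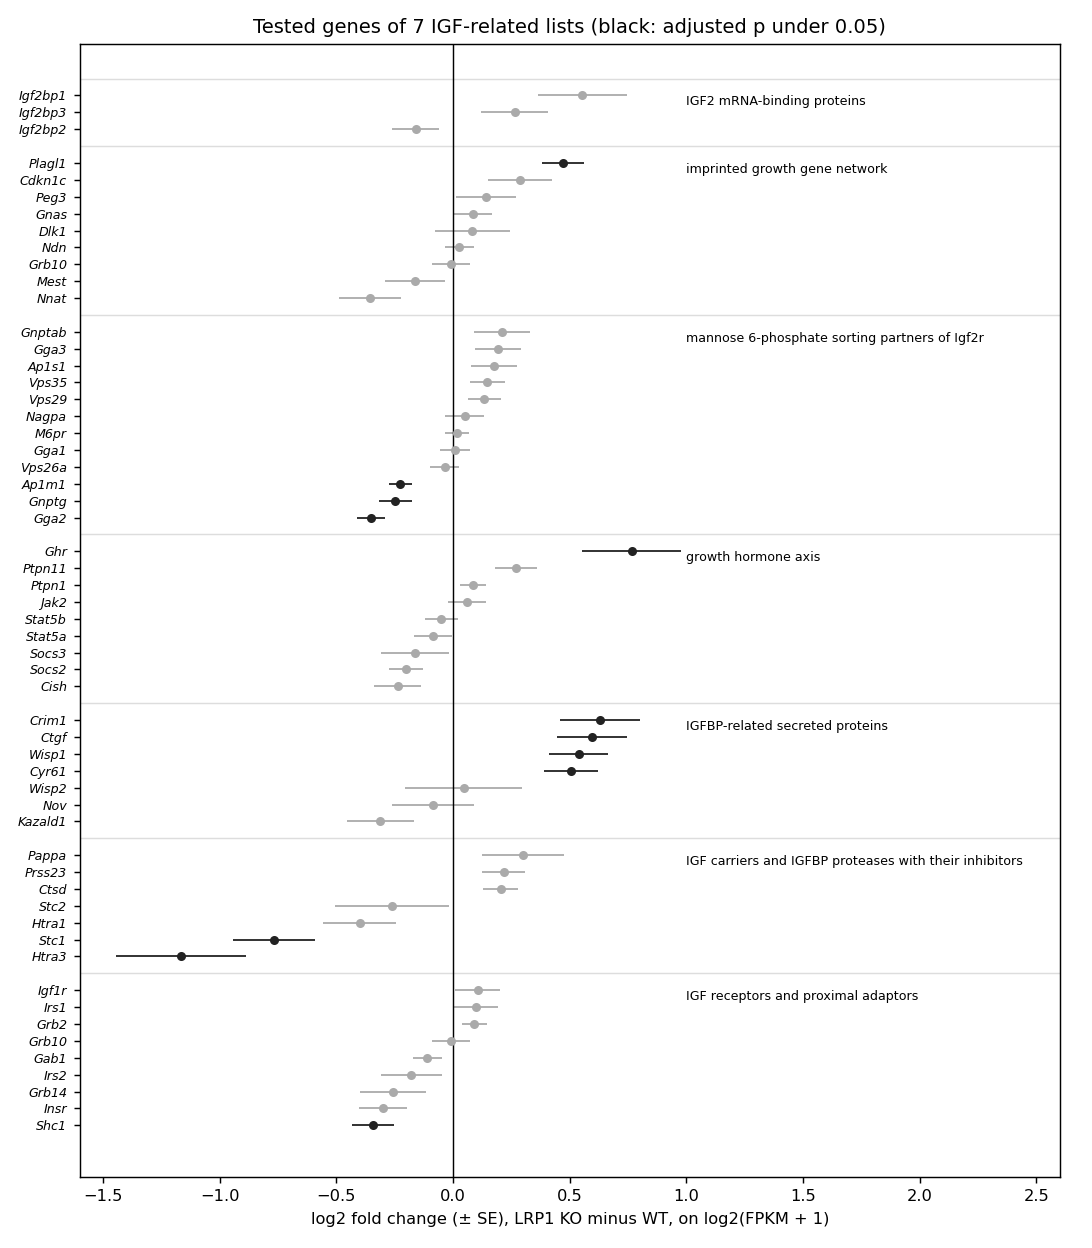
Log2 fold change with its SE (LRP1 KO minus WT, on log2(FPKM + 1)) for every tested gene of the 7 lists; black points passed an adjusted p of 0.05. Called genes were 4 IGFBP-related proteins, Ghr and Plagl1 on the higher side and Shc1, Stc1, Htra3 and 3 sorting partners of Igf2r on the lower side.

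Igf2 and Igf2r are imprinted, and of the imprinted growth gene network 11 of 14 genes were in the table and 9 tested, of which 1 rose and 0 fell, near the share of all genes, with a median of 0.08. Plagl1, a zinc finger factor that acts on other genes of this network, rose from 7.47 ± 0.322 to 10.8 ± 1.40 FPKM (log2 change 0.47, limma adjusted p = 0.0134), with no overlap between groups, and was called in all 8 fits without 1 library. Gnas, which encodes a stimulatory G protein subunit and was the most abundant of the list, was at 623 ± 26.2 and 664 ± 72.0 FPKM (limma adjusted p = 0.488). H19, Meg3 and Airn were not analysed here. The RNA-binding proteins Igf2bp1, Igf2bp2 and Igf2bp3, which bind Igf2 transcripts, had 0 calls by limma, with a median of 0.26, and Igf2bp1 alone had an unadjusted p under 0.05 (limma adjusted p = 0.0812). Most abundant was Igf2bp2, at 50.6 ± 6.31 and 45.1 ± 4.64 FPKM, and Igf2bp3 was at 2.76 ± 0.731 and 3.48 ± 0.514 FPKM.

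For each called member the genes with the most similar profile were found as the smallest root mean square difference between centred log2(FPKM + 1) values over the 8 libraries. For Igf1 these were Il7r (0.0590), Hcls1 (0.1203) and Glipr2 (0.145). Il7r and Hcls1, genes known from leukocytes, were under 1 FPKM in every WT library. Their means rose from 0.200 and 0.545 FPKM in WT to 1.27 and 2.31 FPKM in LRP1 KO, larger ratios than that of Igf1. The added 1 lessens such ratios on the log2(FPKM + 1) scale. For Igf2r they were Tmsb4x (0.0290), which encodes the actin-binding protein thymosin beta 4, Ccdc41 (0.0563) and BC046404 (0.0575), the latter pair not past the threshold. Igfbp4 was nearest to Gpr133 (0.0899), Dio3 (0.116) and 1500015O10Rik (0.136), all with their lowest value in LRP1 KO 1 and their highest LRP1 KO value in LRP1 KO 4. Igfbp5 was nearest to Rassf4 (0.155), Nfe2l3 (0.170) and Scgb1a1 (0.173), and Igfbp6 to Rhpn2 (0.0653), Tcf23 (0.0874) and Mlf1 (0.0901). The members' own profiles varied by a root mean square of 0.487 for Igf1, 0.190 for Igf2r, 0.593 for Igfbp4, 0.420 for Igfbp5 and 0.339 for Igfbp6.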

How the data were processed

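RNA sequencing values were analysed for 4 WT and 4 LRP1 KO libraries, with groups and replicate numbers from the titles. The authors deposited 1 table of values that are not whole numbers, have nearly the same sum (503571 to 504112) and the same maximum in all libraries, and were therefore quantile normalized. The unit of the deposited FPKM values was inferred, since the header does not name it and the submitters' processing notes list TopHat2, Cufflinks and mm10. TPM would look alike. The study's methods name other tools, which give counts. Depth is therefore unknown, and a shift common to most genes would not be seen. The labels do not say which animals or cultures each library came from, so p-values measure only the spread between these libraries, part of which may be technical.

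Log2(FPKM + 1) of the 11389 genes with at least 1 FPKM in at least 4 libraries was fitted with limma 3.58.1 (R 4.3.3, variances following the mean) with group as the only term, and p-values were adjusted with Benjamini-Hochberg over these genes. A call is an adjusted p under 0.05. The count test of the study's methods could not be used on these values. Single genes were also compared by an exact permutation test, and the script was tested on simulated data. Named genes are the members, Lrp1, the called and the 2 most abundant tested genes of each of 7 pathway lists, and the 3 nearest profiles of each called member. Insr, Igf1r, M6pr, Pappa, Igfals, Plg, Klk1 and single markers were named after their values were seen. Markers of 11 cell types, written by hand, were given as sums. Members and lists were chosen with earlier results of these data known. Positions are from GENCODE M21, which matched 21740 of 22520 identifiers. Alternatives were another pseudocount, no filter, rescaling, other variance models, library weights, marker covariates, a replicate block, a Y-linked covariate and leaving out each library.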

Additional observations from a re-analysis of the deposited data

How the results depend on the processing

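Quantile-normalized FPKM without depth allow no counting error, and most calls among the members were near the threshold. Adding 0.1 in place of 1, rescaling the libraries, dropping the variance trend and robust variances kept all 5 calls. The summed macrophage and mesothelial markers did not overlap between the groups, those of fibroblasts and endothelial cells did, and the median SE was larger with the macrophage mean. The cause of the calls lost with a covariate was not tested. With the macrophage mean, 0 members and 6 genes in all were called by limma. An unadjusted p under 0.05 was then found for 3 members and for 2506 of all 11389 tested genes.

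Members called numbered 3 with no filter, 2 with the endothelial, 3 with the fibroblast and 1 with the mesothelial covariate, and 2 to 6 without 1 library. Changes no longer past the threshold were, with no filter, 0.31 for Igf2r and -0.99 for Igfbp4. With the macrophage covariate they were 0.84 for Igf1, 0.29 for Igf2r, -1.94 for Igfbp4, -0.38 for Igfbp5 and -0.42 for Igfbp6, and Igfbp7 reversed to -0.12. With the endothelial covariate they were 0.17 for Igf2r, -0.37 for Igfbp4 and -0.44 for Igfbp6, and with the fibroblast covariate 0.25 for Igf2r and -0.57 for Igfbp6. With the mesothelial covariate, added after the values were seen, they were 0.18 for Igf2r, -1.09 for Igfbp4, -0.68 for Igfbp5 and -0.29 for Igfbp6, and Igfbp7 reversed to -0.0777. With a term for Y-linked transcripts, also added then, Igf2r at 0.31 was lost. Library quality weights brought Igfbp2 (0.36) and Igfbp3 (0.65) past the threshold. Without 1 library, Igf2 ranged from -0.18 to 0.01, with a reversal at 0.00901 without WT 2, Igf2r from 0.25 to 0.37, Igfbp2 from 0.24 to 0.37, Igfbp3 from 0.37 to 0.69, Igfbp4 from -1.19 to -0.78 and Igfbp6 from -0.68 to -0.49.

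Over all genes, 1547 were called, against 3003 with library weights, 168 with the endothelial, 291 with the fibroblast and 81 with the mesothelial covariate, and 433 to 2959 without 1 library. Without LRP1 KO 4 alone it was 2959. With the 2-fold condition 184 were called, against 282 with weights, 6, 95, 111 and 62 with the macrophage, endothelial, fibroblast and mesothelial covariates, 12 when tested against a 2-fold change, and 113 to 312 without 1 library.

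Replicate numbers were not taken to pair the libraries, since the labels give no shared source and same-numbered deviations correlated at 0.158, 0.141, 0.340 and -0.312. LRP1 KO 1, 2 and 3 correlated best with the WT library of their own number, LRP1 KO 4, WT 2 and WT 4 did not. With a replicate block, 1013 genes and 4 members were called, and Igf2r at 0.31 was not (limma adjusted p = 0.0856). Of the 12 called pathway genes, Crim1 (0.0507), Ctgf (0.0547), Ghr (0.0752) and Gnptg (0.0919) also lost their call under the block by their limma adjusted p.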

Other observations

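Markers of 6 further cell types were also summed in each library. Lymphatic endothelial markers summed to 238 to 289 FPKM in WT libraries against 239 to 298 FPKM in LRP1 KO, led by Pdpn and Lyve1, and of 6 tested 0 passed the threshold of limma and 2 had an unadjusted p under 0.05. Pdpn is also made by mesothelial cells. Leukocyte markers summed to 5.28 to 7.18 FPKM in WT libraries against 21.0 to 38.5 FPKM in LRP1 KO, and 5 of 6 tested rose. The pan-leukocyte gene Ptprc was below the filter, at a mean of 0.0959 FPKM in WT libraries against 0.668 FPKM in LRP1 KO, with no overlap. Hepatic stellate markers summed to 258 to 279 and 269 to 326 FPKM, and 2 of 4 tested rose, Hand2 and Des.

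Markers of parenchymal cells of the 3 organs were low apart from Tnnt2. None of the 10 hepatocyte markers was tested, and their sum was under 2 FPKM in every library. Lung epithelial markers summed to 4.72 to 8.54 and 5.36 to 8.94 FPKM, and 1 of 2 tested, the club cell gene Scgb1a1, fell from 2.89 ± 0.712 to 1.13 ± 0.125 FPKM (log2 change -0.85, limma adjusted p = 0.00770). Cardiomyocyte markers summed to 101 to 155 and 87.9 to 123 FPKM, led by Tnnt2, and of 2 tested 0 passed the threshold of limma and 1 had an unadjusted p under 0.05.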
